A study of Mus musculus with 4 samples.

Results

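Fibroblast identity and activation in the pressure-overloaded mouse heart were followed through 10 genes, namely Pdgfra, Ddr2, Tcf21, Dpt, Meox1, Scx, Wt1, Fap, Thy1 and Vim. They were chosen by name, as genes known for marking fibroblasts or their activation, and their probes were found through the RefSeq transcript that the array annotation gives for each probe. This gave 11 probes for the 10 genes, among 21763 genes that could be named on the array, and all 10 genes were well above background on all 4 arrays. Total RNA came from whole hearts of male C57BL/6J mice after sham surgery or transverse aortic constriction (TAC), a band around the aortic arch that raises the pressure load on the left ventricle. The 4 groups were sham and TAC at 2 weeks, with a labelled age of 10 weeks, and sham and TAC at 8 weeks, with a labelled age of 16 weeks, and the study chose these times for the hypertrophic response and for heart failure. The methods of the study state another age at surgery, and the ages given here are those of the labels. No group carried a transgene or a drug. Each group was 1 array with a pool of RNA from 4 to 6 mice, so the spread between mice is not known, no difference at a single time could be tested, and every fold below is the ratio of 2 pools. A fit of TAC over both times together, with the difference between the times as its only error, was not run.

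Cardiac fibroblasts lie between the cardiomyocytes and make most of the collagenous matrix of the heart. In the embryo most of them arise from the epicardium, in a programme that needs the transcription factors Tcf21 and Wt1 and signalling through the PDGF receptor alpha, and in the adult the resting cells are commonly recognised by Pdgfra, Tcf21, Dpt and Ddr2. Under pressure load they become activated, secrete more matrix and can turn into contractile myofibroblasts. Meox1 and Scx are transcription factors linked to that activation, Fap is a protease at the surface of activated fibroblasts, and Thy1 and Vim are broader markers that other cell types of the heart also carry.

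Meox1 stood out among the markers, with 2.20 times the sham level at 2 weeks and 3.72 times at 8 weeks, and Scx was next, with 1.63 and 2.08 times. Pdgfra, Wt1, Vim and Fap were higher at both times by smaller amounts, and Ddr2 was higher by less again. Of the markers of the resting fibroblast, Tcf21 and Dpt were not higher at 8 weeks. Tcf21 was 31.8% lower after TAC at that time and Dpt 15.3% lower, the latter by a log2 change of −0.24 that was −0.07 without normalization between arrays. In all, 7 of the 10 markers were higher after TAC at both times, compared with 29.1% of the 29272 probes well above background on all 4 arrays. The 7 include Ddr2, whose change at 8 weeks was only 0.04 on the log2 scale, with −0.10 at its other probe.

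Levels are the processed signal of a probe divided by the 75th percentile of its array, which was between 206.0 and 248.5. The level of a probe also depends on how well it binds, so each gene or list is compared only with itself on the other arrays. Levels summed over a list serve that comparison and are weighted towards its brightest probes, which are the genes said to lead it. The share of probes well above background was 54.74% to 58.55%, and no spot was saturated. All arrays lay on the same slide and were read in the same scan, the arrays of 2 weeks in row 1 and those of 8 weeks in row 2, so that time and slide row cannot be told apart. A change is a log2 ratio, and up means a TAC array that was well above background and over 2 times the sham array, with down as the mirror of this. As a measure of technical spread, spots of the same probe on 1 array were compared for the 271 probes that were printed 10 times and were well above background throughout. Their SD on the log2 scale was 0.12, which makes 0.17 for the ratio of 2 spots. For the 217 of them at least as bright as the dimmest marker value, these were 0.08 and 0.11. As a measure of the difference between pools without TAC, the sham arrays of 8 and 2 weeks differed with an SD of 0.28 over the measured probes, although these pools also differ in age. The corresponding SD for TAC over sham was 0.34 at 2 weeks and 0.38 at 8 weeks. Since a heart holds many cell types, fewer cells of a type and less RNA per cell cannot be told apart in these values.

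**Figure D1:**
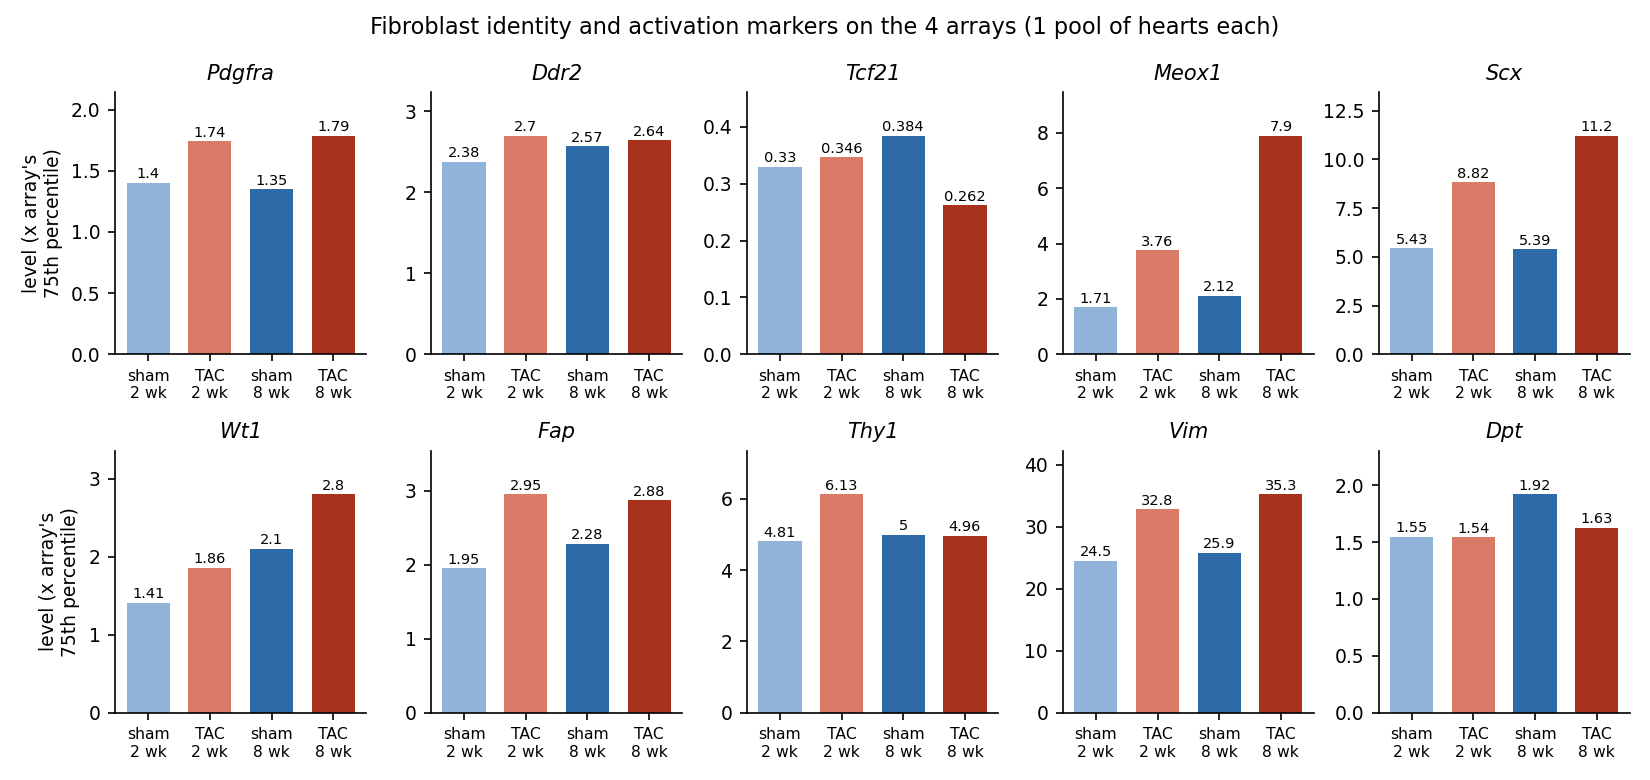
Level of the 10 markers on the 4 arrays, as the signal divided by the 75th percentile of the array, with an own scale for each gene and 1 bar for each array. Blue bars are sham and red bars TAC, at 2 and 8 weeks, and there are no error bars because each group is 1 pool. Meox1 goes from 1.71 in sham at 2 weeks to 7.90 in TAC at 8 weeks, whereas Tcf21 is lowest in TAC at 8 weeks, at 0.262.

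The members that define the resting fibroblast come first, beginning with the receptors. Pdgfra encodes the PDGF receptor alpha, a tyrosine kinase that marks nearly all fibroblasts of the adult heart, and lies on the plus strand at chr5:75152292-75198215 in GRCm38. Its level was 1.40 in sham and 1.74 in TAC at 2 weeks, and 1.35 in sham and 1.79 in TAC at 8 weeks. Both TAC arrays were above both sham arrays, by 1.24-fold at 2 weeks and 1.32-fold at 8 weeks. The probe was printed 10 times on each array, and its spots ran from 1.18 to 1.55 in sham and from 1.55 to 1.93 in TAC at 2 weeks, where 2 outlier spots of the TAC array were left out. At 8 weeks the spots ran from 1.23 to 1.42 in sham and from 1.63 to 1.99 in TAC. The spots of the arrays thus met at their edges at 2 weeks and were apart at 8 weeks, which describes the measurement within these pools and not the spread between mice. Of the measured probes, 12.2% had a higher change than Pdgfra at 2 weeks and 8.37% at 8 weeks.

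Ddr2 encodes a collagen receptor with tyrosine kinase activity, found on fibroblasts and other mesenchymal cells, at chr1:169972307-170110762 on the minus strand. Its brighter probe read 2.38 in sham and 2.70 in TAC at 2 weeks, and 2.57 in sham and 2.64 in TAC at 8 weeks. The change was 0.18 at 2 weeks and 0.04 at 8 weeks on the log2 scale, and the latter is well below the spread of the ratio of 2 spots. The other probe of Ddr2 was dimmer, with levels of 0.255, 0.273, 0.319 and 0.297 in the same order. It gave changes of 0.10 and −0.10, so that the probes did not share a direction at 8 weeks. The related receptor Ddr1, which belongs to epithelial cells, was 1.30-fold and 1.27-fold higher.

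Pdgfra is 1 of 7 PDGF ligands and receptors on the array, all of them measured. None was up at 2 weeks and 1 was up at 8 weeks, with a median change of 0.31 and 0.12, where the median over all measured probes was −0.01 and −0.04. The gene up at 8 weeks was Pdgfrl, a receptor-like protein without a kinase, with levels of 0.947, 1.22, 0.827 and 1.87 in sham and TAC at 2 weeks and then at 8 weeks. Pdgfrb, the receptor of pericytes and smooth muscle, had 1.41 times its sham level at 2 weeks and 1.09 times at 8 weeks. Pdgfa, a ligand of the alpha receptor, was lower after TAC at both times, with changes of −0.54 and −0.39. Of the other ligands, Pdgfc was higher at both times, with 0.53 and 0.21, though it differed by 1.13 between the sham arrays. Pdgfb had 0.30 and −0.04, and Pdgfd 0.11 and −0.14. Pdgfra thus differed in direction from Pdgfa at both times and went the same way as Pdgfc.

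Tcf21 encodes a basic helix-loop-helix transcription factor needed for the formation of cardiac fibroblasts and kept on in resting ones, at chr10:22817281-22820174 on the minus strand. Its level was 0.330 in sham and 0.346 in TAC at 2 weeks, and 0.384 in sham and 0.262 in TAC at 8 weeks. At 2 weeks the difference of 0.07 was within the spread of 2 spots. At 8 weeks Tcf21 changed by −0.55, and the TAC array was the lowest of the 4, also below the sham array of 2 weeks. Of the measured probes, 94.8% had a higher change than Tcf21 at 8 weeks, and 4.10% differed by more between the sham arrays than Tcf21 did between TAC and sham at that time. With normexp, another background correction, the change at 8 weeks was −0.38, and without normalization between arrays it was −0.38 as well. Before scaling, the signal was 65.1 in TAC at 8 weeks and 68.1 in sham at 2 weeks, so these were close. The probe was well above background on each array.

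Dpt encodes dermatopontin, a small matrix protein that binds decorin and collagen and marks fibroblasts of many organs, at chr1:164796644-164824266 on the plus strand. Its level was 1.55 in sham and 1.54 in TAC at 2 weeks, and 1.92 in sham and 1.63 in TAC at 8 weeks. The arrays of 2 weeks did not differ by more than their spots did, with a change of −0.004. At 8 weeks the change was −0.24, or −0.15 when arrays were scaled by their median and −0.07 without normalization, with spots from 1.76 to 2.14 in sham and from 1.47 to 1.84 in TAC, so that the spots of the arrays overlapped in part. The sham array of 8 weeks was the highest of the 4, and TAC at 8 weeks was still above both arrays of 2 weeks. Over the measured probes, 23.2% differed by more between the sham arrays than Dpt did between TAC and sham at 8 weeks.

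**Figure D2:**
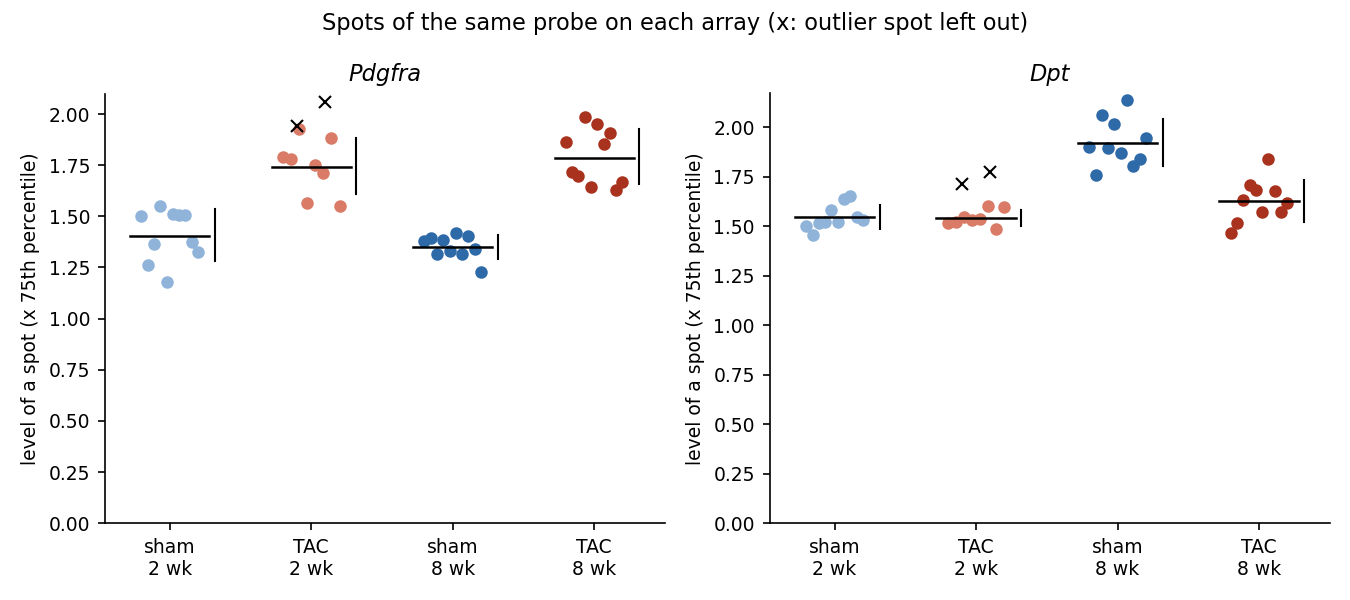
Spots of the Pdgfra probe and of the Dpt probe on each array, as signal divided by the 75th percentile of the array. Each point is 1 of the 10 spots, crosses are outlier spots that were left out, the horizontal line is the mean and the vertical bar is 1 SD on the log2 scale to either side. At 8 weeks the Pdgfra spots end at 1.42 in sham and begin at 1.63 in TAC, whereas the Dpt spots overlap, beginning at 1.76 in sham and ending at 1.84 in TAC.

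The DNA upstream of these genes is shown for Pdgfra, Tcf21 and Dpt, 3 markers of the resting fibroblast of which the first was higher and the others lower after TAC at 8 weeks. The sequences are those of the RefSeq table of promoters for GRCm38.p6, given 5′ to 3′ on the strand of the gene, and cover the 219 bases before the earliest annotated start. Capitals mark CANNTG, the E-box that basic helix-loop-helix factors such as Tcf21 and Scx bind, and CAGAC or its complement GTCTG, the short element that SMAD proteins bind. The table held 5 of the 10 genes, the other entries being Ddr2 and Vim.
Pdgfra, chr5:75152032-75152250, plus strand: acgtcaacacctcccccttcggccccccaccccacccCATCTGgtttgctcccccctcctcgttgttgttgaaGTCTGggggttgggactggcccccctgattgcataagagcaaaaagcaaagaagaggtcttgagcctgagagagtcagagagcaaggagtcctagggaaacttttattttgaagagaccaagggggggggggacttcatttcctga
Tcf21, chr10:22820175-22820393, minus strand: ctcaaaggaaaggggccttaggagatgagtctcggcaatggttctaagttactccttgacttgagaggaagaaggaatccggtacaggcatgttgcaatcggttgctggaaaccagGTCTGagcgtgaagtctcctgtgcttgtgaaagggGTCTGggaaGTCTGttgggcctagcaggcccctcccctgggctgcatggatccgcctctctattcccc
Dpt, chr1:164796425-164796643, plus strand: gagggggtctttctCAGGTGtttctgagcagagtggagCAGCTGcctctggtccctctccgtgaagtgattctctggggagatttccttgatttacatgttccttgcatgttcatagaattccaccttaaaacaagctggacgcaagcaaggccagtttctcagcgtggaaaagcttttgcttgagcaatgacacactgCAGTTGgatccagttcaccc

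Pdgfra had 1 CANNTG and 1 CAGAC in this window, Tcf21 had 0 and 3, and Dpt had 3 and 0. Both strands were searched, and the motifs share no match here. Over 32851 promoter windows of the same length, 61.5% held CANNTG and 9.32% held it 3 times or more, whereas 38.2% held CAGAC and 1.63% held it 3 times or more. The letters TATAAA were in none of the 3 windows and in 10.9% of all windows. A match of these letters describes the sequence and is not evidence that a factor binds there.

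Among the transcription factors of activation, Meox1 showed the greatest change of the 10 markers at both times. It encodes a homeobox factor that in heart failure is switched on in fibroblasts by stress, at chr11:101877510-101894374 on the minus strand. Its level was 1.71 in sham and 3.76 in TAC at 2 weeks, and 2.12 in sham and 7.90 in TAC at 8 weeks. Both TAC arrays were above both sham arrays, and TAC at 8 weeks was 2.10-fold above TAC at 2 weeks. The change was 1.14 at 2 weeks and 1.90 at 8 weeks. At 2 weeks 0.492% of the measured probes had a higher change and at 8 weeks 0.256%, and 0.547% and 0.208% differed by more than that between the sham arrays. With normexp the change at 2 weeks was 0.97, and Meox1 then missed the 2-fold threshold at that time.

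Scx encodes scleraxis, a basic helix-loop-helix factor of tendon and of matrix-producing fibroblasts that drives collagen genes, at chr15:76457452-76459458 on the plus strand. Its level was 5.43 in sham and 8.82 in TAC at 2 weeks, and 5.39 in sham and 11.2 in TAC at 8 weeks. The sham arrays read nearly the same, with a difference of −0.01, and both TAC arrays were above them. The change was 0.70 at 2 weeks and 1.06 at 8 weeks, which 2.20% and 1.24% of the measured probes exceeded. Scx lies within Bop1, a gene of ribosome assembly on the opposite strand at chr15:76452989-76477277. Bop1 read 5.26 and 5.43 at 2 weeks and 5.22 and 6.34 at 8 weeks in sham and TAC, a change of 0.05 and 0.28. Whether any signal of the Scx probe came from transcripts of the other strand was not tested.

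At 2 weeks Meox1 was the only marker up, and at 8 weeks Meox1 and Scx were, so that the count went from 1 to 2 of 10. Of the 29272 probes measured on all 4 arrays, 0.762% were up at 2 weeks and 1.38% at 8 weeks. No marker was down at either time, compared with 0.567% of the measured probes at 2 weeks and 0.892% at 8 weeks. Over the 10 markers the median change was 0.38 at 2 weeks, ranging from −0.004 for Dpt to 1.14 for Meox1. At 8 weeks it was 0.37, ranging from −0.55 for Tcf21 to 1.90 for Meox1. The medians were thus about equal while the markers lay farther apart at 8 weeks. Higher levels were found for 9 markers at 2 weeks and for 7 at 8 weeks. The median over all measured probes was −0.01 and −0.04, so at each time most of them were lower after TAC. For 5 of the 10 the change at 8 weeks was above that at 2 weeks, which shows no common direction between the times.

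**Figure D3:**
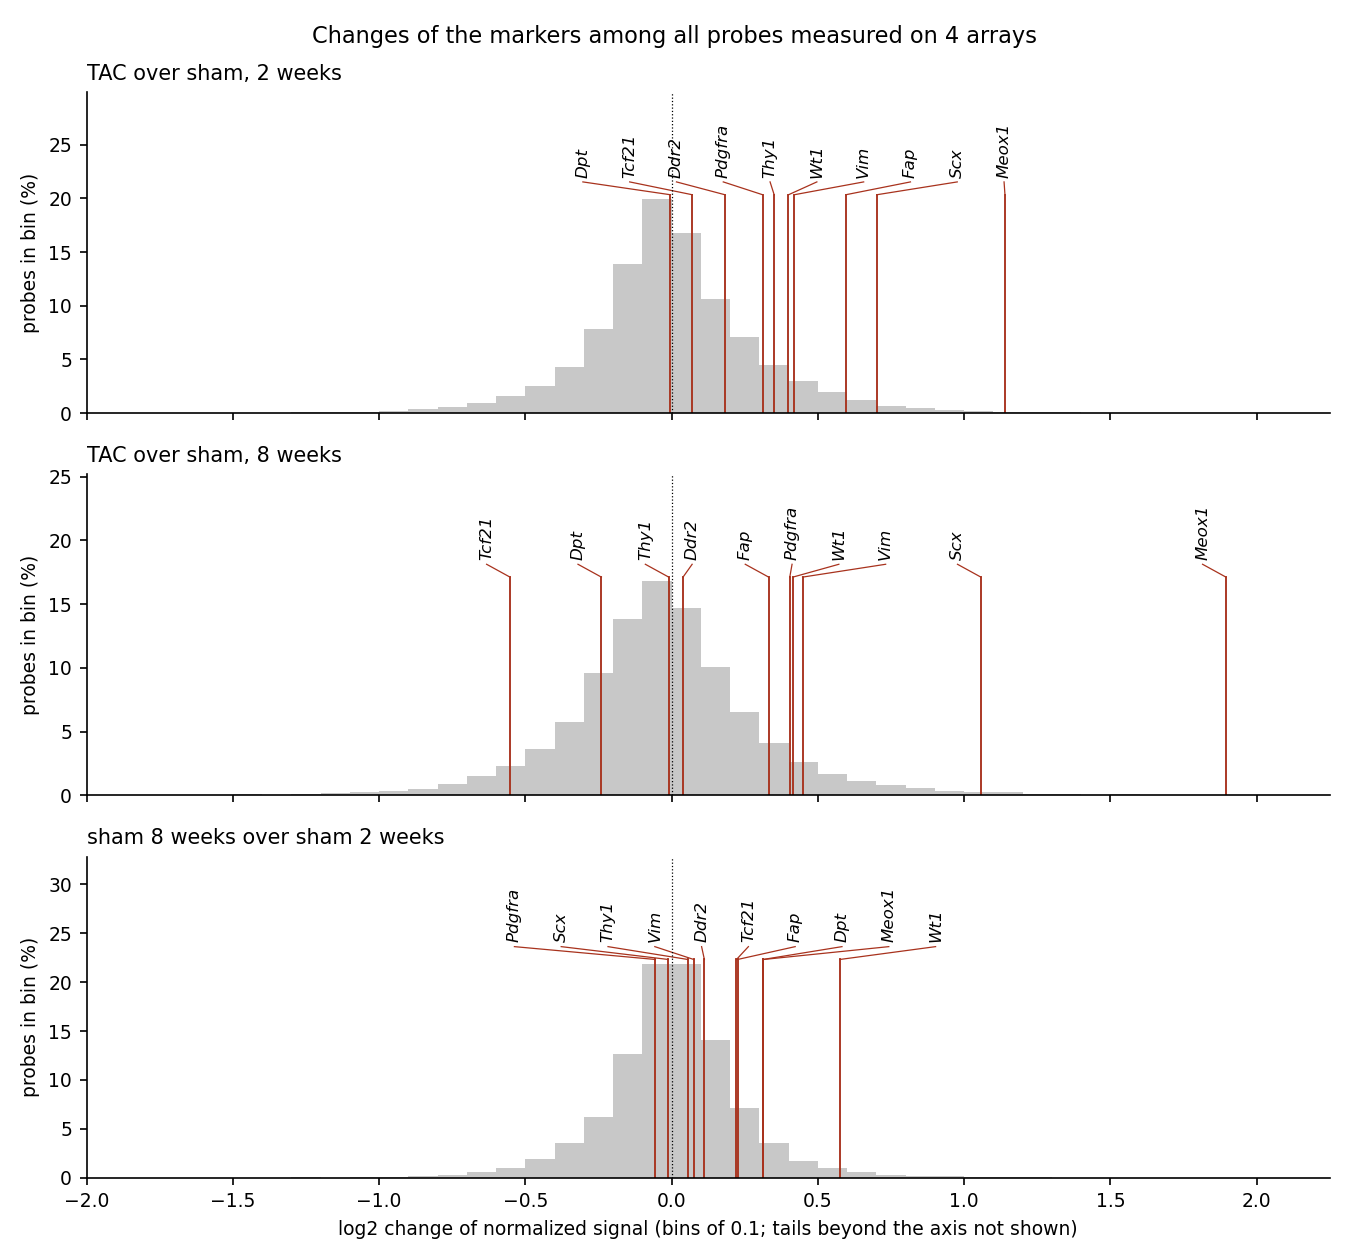
Changes of the 10 markers, as vertical red lines, over the histogram of all probes well above background on the 4 arrays, on the log2 scale in bins of 0.1. The panels show TAC over sham at 2 weeks, TAC over sham at 8 weeks, and sham at 8 weeks over sham at 2 weeks. Meox1 lies at 1.14 and 1.90 in the TAC panels and at 0.31 in the sham panel, and Tcf21 moves from 0.07 at 2 weeks to −0.55 at 8 weeks.

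Wt1 encodes the zinc finger factor of the epicardium, needed for epicardial cells to become mesenchymal and switched on again after cardiac injury, at chr2:105126529-105173616 on the plus strand. Its level was 1.41 in sham and 1.86 in TAC at 2 weeks, and 2.10 in sham and 2.80 in TAC at 8 weeks. TAC was above sham at each time by nearly the same ratio, 1.32-fold and 1.33-fold. The level was also higher at 8 weeks than at 2 weeks in both conditions, by 0.57 in sham and 0.59 in TAC, and the sham array of 8 weeks was above the TAC array of 2 weeks. Wt1 was the marker with the greatest difference between the sham arrays.

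Other genes of the epicardium and mesothelium were mostly near the lower limit of the arrays. Of 12 such genes, 5 were measured on all arrays and 5 were not well above background on any, among them Upk3b, Upk1b and Lrrn4, which define the mesothelium, and Bnc1. The summed level of the 12 was 1.66 and 2.49 at 2 weeks and 1.65 and 3.17 at 8 weeks in sham and TAC. Krt18, a keratin also found in stressed cardiomyocytes, read 0.239, 0.462, 0.207 and 1.06 in sham and TAC at 2 weeks and then at 8 weeks, and was 1.93-fold and 5.12-fold higher after TAC. Aldh1a2, the enzyme that makes retinoic acid in the epicardium, read 0.708, 1.01, 0.709 and 1.48 in the same order and was 2.09-fold higher at 8 weeks. Msln, mesothelin, read 0.1597 in sham and 0.348 in TAC at 2 weeks, but 0.152 in sham and 0.103 in TAC at 8 weeks. Tbx18, an epicardial T-box factor, was higher at both times with changes of 0.56 and 0.36. Krt19 was above background only after TAC, and its change at 8 weeks was at least 1.005-fold, a bound close to no change. Between them the genes of this group did not move in a common direction at 8 weeks, where 3 of the 5 measured ones were higher.

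The partners and relatives of these factors, apart from Scx, changed by less than 2-fold at both times. Of 9 such genes, Scx itself among them, none was up at 2 weeks and only Scx was up at 8 weeks. Tcf3, Tcf4 and Tcf12, the E proteins with which Tcf21 and Scx pair on DNA, had changes from 0.18 to 0.25 at 2 weeks and from 0.07 to 0.16 at 8 weeks. Meox2, the paralog of Meox1, which is active in cardiac endothelium, read 3.66 in sham and 4.35 in TAC at 2 weeks, and 3.57 in sham and 2.60 in TAC at 8 weeks. Its change of 0.25 at 2 weeks and −0.46 at 8 weeks lay opposite to that of Meox1 at the later time. Tcf15, another bHLH factor of the heart endothelium, went the same way as Meox2, with 0.34 and −0.31.

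By the distance between centred log2 levels over the 4 arrays, the genes nearest to Meox1 among 18885 other measured gene probes were Nppb, Ube2c and Apod. Nppb, which encodes the natriuretic peptide BNP of strained cardiomyocytes, read 41.3, 84.5, 47.7 and 183 in sham and TAC at 2 weeks and then at 8 weeks. Its changes of 1.03 and 1.94 were close to the 1.14 and 1.90 of Meox1. Ube2c, a ubiquitin-conjugating enzyme of mitosis, had 1.04 and 1.85, and Apod, a secreted lipid-binding protein, had 1.01 and 1.86. The genes nearest to Scx were Ugt1a6b, with changes of 0.68 and 1.13, Cd52, with 0.61 and 1.004, and Fgl2, with 0.69 and 1.16. Cd52 is a surface protein of leukocytes, Fgl2 is a fibrinogen-like protein and Ugt1a6b a glucuronosyltransferase. Likeness over 4 arrays is a description of these levels only. The other markers varied by less than 2-fold over the arrays, and no nearest genes are named for them.

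Among the surface and filament proteins, Fap encodes fibroblast activation protein, a serine protease that is scarce in resting tissue, at chr2:62500943-62574075 on the minus strand. Its level was 1.95 in sham and 2.95 in TAC at 2 weeks, and 2.28 in sham and 2.88 in TAC at 8 weeks. Both TAC arrays were above both sham arrays, by 1.51-fold and 1.26-fold. The TAC arrays differed from each other by −0.04, or by 0.23 without normalization, and the sham arrays by 0.23. With normexp the change at 2 weeks was 0.42 in place of 0.60. None of the 6 relatives of Fap and Ddr2 was up or down at either time. Dpp4, the nearest relative of Fap, was well above background on 2 of the 4 arrays, and TAC was above sham by at least 1.09-fold at 2 weeks but below it by at least 1.41-fold at 8 weeks. Of the other proteases, Dpp7, Dpp8, Dpp9 and Prep had changes from −0.02 to 0.17 at 2 weeks and from −0.02 to 0.26 at 8 weeks.

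Thy1 encodes CD90, a glycolipid-anchored protein of fibroblasts, T cells and neurons, at chr9:44043384-44048579 on the plus strand. Its level was 4.81 in sham and 6.13 in TAC at 2 weeks, and 4.998 in sham and 4.96 in TAC at 8 weeks. TAC at 2 weeks was above the other arrays, which were close to each other. The change was 0.35 at 2 weeks and −0.01 at 8 weeks, the latter far below the spread of 2 spots and positive in 2 of the 10 other settings of the processing.

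Vim encodes vimentin, the intermediate filament of fibroblasts, endothelial cells and leukocytes, at chr2:13573927-13582826 on the plus strand. Its level was 24.5 in sham and 32.8 in TAC at 2 weeks, and 25.9 in sham and 35.3 in TAC at 8 weeks. Both TAC arrays were above both sham arrays, with nearly the same change of 0.42 and 0.45. Of 9 other intermediate filament genes, 6 were measured, and all 6 were higher after TAC at both times, 1 of them, Krt18, by more than 2-fold at 8 weeks. Des, the desmin of muscle cells, was 1.27-fold and 1.46-fold higher, and Lmna, the lamin of the nuclear envelope, changed by 0.20 and 0.46. Vimentin was therefore not alone among filament genes in its direction, and the levels of cardiomyocyte and nuclear filaments went the same way.

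Without TAC, the markers differed between the pools of 8 and 2 weeks by −0.06 for Pdgfra to 0.57 for Wt1, with a median of 0.17 and 8 of 10 higher at 8 weeks. None of these differences was above 1.5-fold. The median over all measured probes was 0.005, so these divided about evenly between higher and lower. Besides Wt1, the markers that differed most were Meox1 with 0.31, Dpt with 0.31, Fap with 0.23 and Tcf21 with 0.22. Between the TAC pools the differences ran from −0.40 for Tcf21 to 1.07 for Meox1. Their median was 0.06, compared with −0.01 over all measured probes. A count of 6 of 10 was higher at 8 weeks, which is not read as a rise. Thy1, with −0.30, was also lower in the later TAC pool, and Scx, with 0.34, was higher. These differences between the TAC pools depended on the scaling, and without normalization they were −0.13 for Tcf21, −0.03 for Thy1, 0.62 for Scx and 1.34 for Meox1. For Wt1 the difference between the times was greater than that between TAC and sham, and for Scx it was smaller. These ratios share their arrays with those of TAC over sham and are not independent of them.

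Other fibroblast genes were read from 2 lists that contain none of the markers. Of 17 further genes of fibroblast identity, all measured, 2 were up at 2 weeks and 4 at 8 weeks, and none was down, with a median change of 0.62 and 0.55. Mfap5, a protein of microfibrils, read 9.46, 23.6, 7.70 and 29.3 in sham and TAC at 2 weeks and then at 8 weeks, and was 2.50-fold and 3.80-fold higher. Pi16, a surface protein of adventitial fibroblasts, was 2.08-fold and 2.40-fold higher, Serpinf1, a secreted serpin, 1.79-fold and 2.48-fold, and Col1a1, the main fibrillar collagen chain, 1.96-fold and 2.30-fold. Fbln1 and Clec3b, a matrix glycoprotein and tetranectin, were lower after TAC, as Tcf21 and Dpt were at 8 weeks, Fbln1 by −0.50 and −0.78 and Clec3b by −0.14 and −0.73 at the earlier and the later time. The summed level of the list was 1344 and 1555 at 2 weeks and 1360 and 1534 at 8 weeks, of which Medag alone gave 866, 938, 861 and 827. Whether this bright probe reads fibroblast transcripts was not tested, and the sum rests mostly on it.

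Genes of myofibroblasts and activated fibroblasts were higher by more than the markers were. Of 20 such genes, 18 were measured, and 9 were up at 2 weeks and 9 at 8 weeks, with a median change of 0.99 and 1.04 and none down. Cilp, a matrix protein of cartilage and scar, was 10.9-fold and 12.7-fold higher, and Ltbp2, which binds fibrillin, 6.35-fold and 11.1-fold. Postn, periostin, read 1.21, 5.95, 1.25 and 9.50 in sham and TAC at 2 weeks and then at 8 weeks, a ratio of 4.91 and 7.59. Col8a1 was 3.69-fold and 6.97-fold higher, Timp1, an inhibitor of matrix proteases, 3.63-fold and 5.61-fold, and Thbs4 and Comp, a pair of thrombospondins, 2.49-fold and 4.17-fold and 2.00-fold and 3.78-fold. Ccn2 and Sfrp1 were up only at 8 weeks, by 4.43-fold and 2.14-fold. Fn1 and Sfrp2 were up only at 2 weeks, by 2.15-fold and 2.74-fold, with ratios of 1.57 and 1.83 at 8 weeks. The TAC level of Sfrp2 was nevertheless higher at 8 weeks, 0.462 against 0.389, while its sham arrays differed by 0.83. Between the sham arrays Comp and Cilp also differed, by 0.92 and 0.95. Acta2, the smooth muscle actin that defines the contractile myofibroblast, was not higher, with changes of −0.01 and −0.40, although smooth muscle of vessels adds to its level in whole heart. Tagln, of the same contractile set, had 0.34 and 0.25. Cthrc1 and Tnc were not well above background on any array.

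Tendon genes, which like Scx belong to dense connective tissue, were measured only in part. Of 8 such genes 5 were measured, and 4 of these were higher after TAC at each time. Chad was lower, with changes of −0.10 and −0.62. The 2 that were up at both times, Thbs4 and Comp, are also in the list of activated fibroblasts. Tnmd and Mkx, which define tendon, and Kera were not well above background on any array. The summed level of the 8 was 3.18 and 6.54 at 2 weeks and 4.71 and 14.1 at 8 weeks in sham and TAC, and Fmod alone differed by 1.62 between the sham arrays. In TAC at 8 weeks Thbs4 gave 7.42 and Comp 4.63 of that sum.

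**Figure D4:**
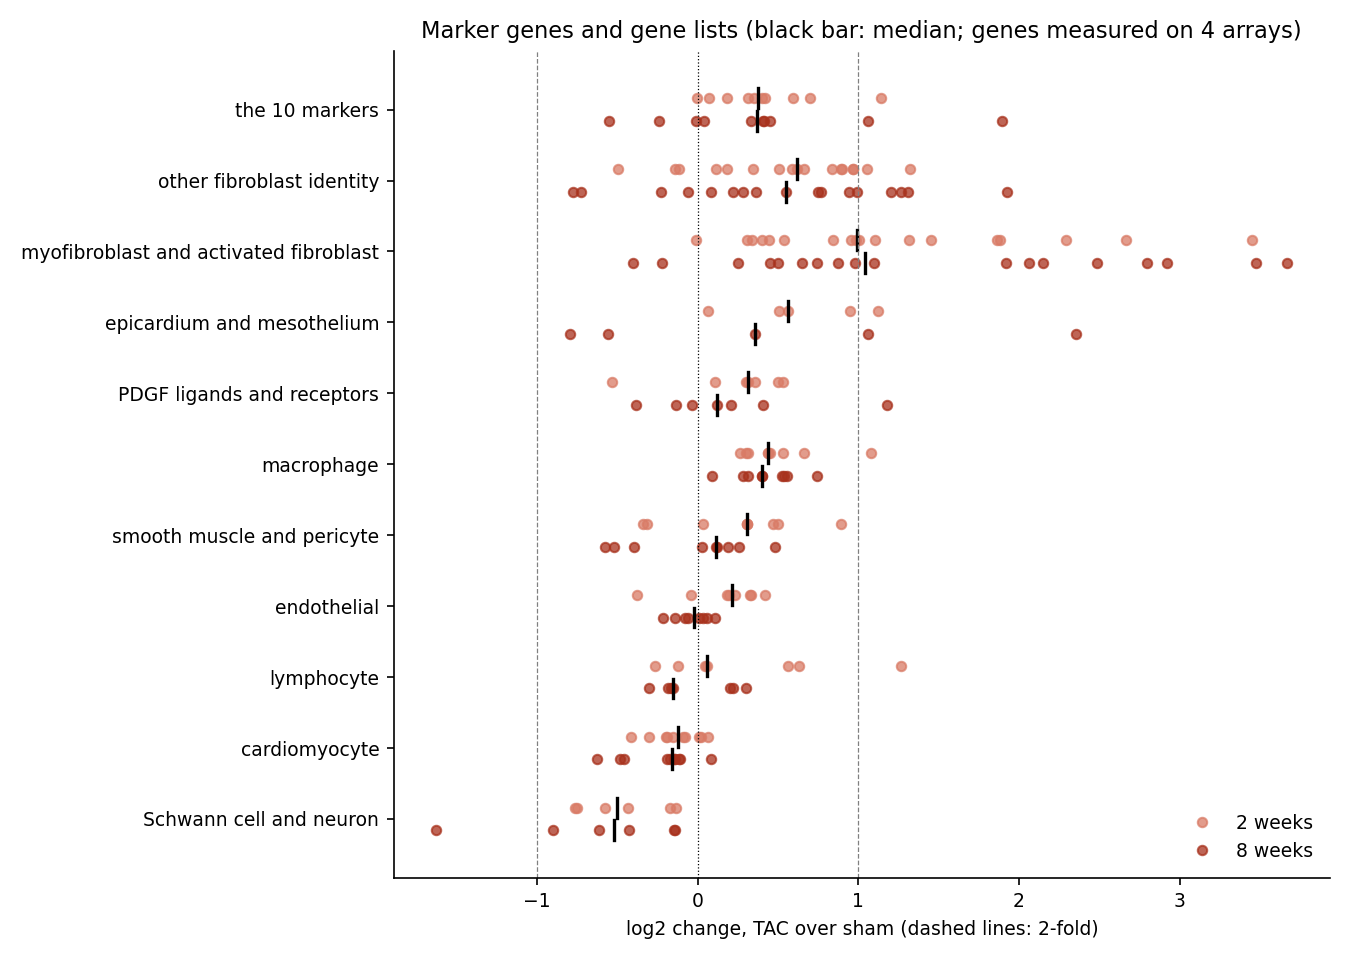
Change of each gene measured on the 4 arrays, as log2 of TAC over sham, for the 10 markers and for lists of other genes, with light points for 2 weeks and dark points for 8 weeks. Black bars are medians and dashed lines mark 2-fold. The median of the 10 markers is 0.38 and 0.37, that of the activated fibroblast genes 0.99 and 1.04, and that of the cardiomyocyte genes −0.12 and −0.16.

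Markers of the other cell types of the heart differed in direction. The cardiomyocyte list, 10 genes led by Myl3, Actc1 and Myh6, had a summed level of 10880 and 10220 at 2 weeks and 10280 and 9163 at 8 weeks in sham and TAC, with none up or down. Myh6 read 1851, 1622, 1713 and 1499 in sham and TAC at 2 weeks and then at 8 weeks. The endothelial list, led by Egfl7, Kdr and Vwf, had a median change of 0.21 and −0.03, and its summed level was 192 and 230 at 2 weeks and 195 and 182 at 8 weeks. Thy1 changed by 0.35 and −0.01, and a relation between its levels and this list was not tested. In the list of smooth muscle and pericytes, led by Smtn, Abcc9 and Rgs5, the median was 0.30 and 0.11, and the summed level ran from 106 and 99.98 at 2 weeks to 114 and 89.2 at 8 weeks. Of its 9 genes, 7 were higher after TAC at 2 weeks and 6 at 8 weeks. Smtn and Abcc9, which weigh much in the sum, were lower, with −0.32 and −0.58 for Smtn and −0.34 and −0.52 for Abcc9. Whether these bright probes read transcripts of smooth muscle or pericytes was not tested.

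All 9 macrophage genes, led by Csf1r, C1qa and C1qb, were higher after TAC at both times, with a median change of 0.44 and 0.40, close to that of the 10 markers. Their summed level was 45.0 and 57.4 at 2 weeks and 46.3 and 60.8 at 8 weeks, and only Cx3cr1 was up, 2.12-fold at 2 weeks. Since leukocytes carry Vim, the levels of that gene are read beside these. Of 11 lymphocyte genes, led by Cd4, Nkg7 and Cd3e, 7 were measured, with a median change of 0.06 and −0.16 and a summed level of 21.4 and 21.9 at 2 weeks and 21.6 and 19.4 at 8 weeks. Cd2, a T cell adhesion protein, was 2.41-fold higher at 2 weeks, from 0.0893 to 0.215, Ms4a1, the B cell protein CD20, was at least 2.20-fold higher, and Cd3d at least 1.32-fold. Cd3g and Cd8a, which define T cells, were not well above background on any array. Cd3d was so only on the TAC arrays, whereas Cd3e read 5.64 in sham and 5.87 in TAC at 2 weeks. Whether the bright probes that lead this list read lymphocyte transcripts was not tested.

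All 6 genes of Schwann cells and neurons, led by Dbh, Th and Gfra3, were lower after TAC at both times, with a median change of −0.51 and −0.52. Their summed level was 11.03 and 7.68 at 2 weeks and 11.9 and 6.38 at 8 weeks. Dbh, the enzyme that makes noradrenaline, was 3.09-fold lower at 8 weeks, with levels of 6.16 in sham and 1.99 in TAC. Thy1, which neurons also carry, changed by 0.35 at 2 weeks and −0.01 at 8 weeks. None of the 5 adipocyte genes was well above background on any array. The part of these other cell types in the levels of the 10 markers was not tested.

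The direction of the change held in the 10 other settings of the processing for Meox1, Scx, Wt1, Fap, Vim, Pdgfra and Tcf21 at both times. It changed sign in some of them for Ddr2 and Thy1 at 8 weeks and for Dpt at 2 weeks, each of which lay within 0.04 of 0. Not all settings could move these values. The other filters on dim probes left every marker as it was, and the mean over probes could change only Ddr2.

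**Figure D5:**
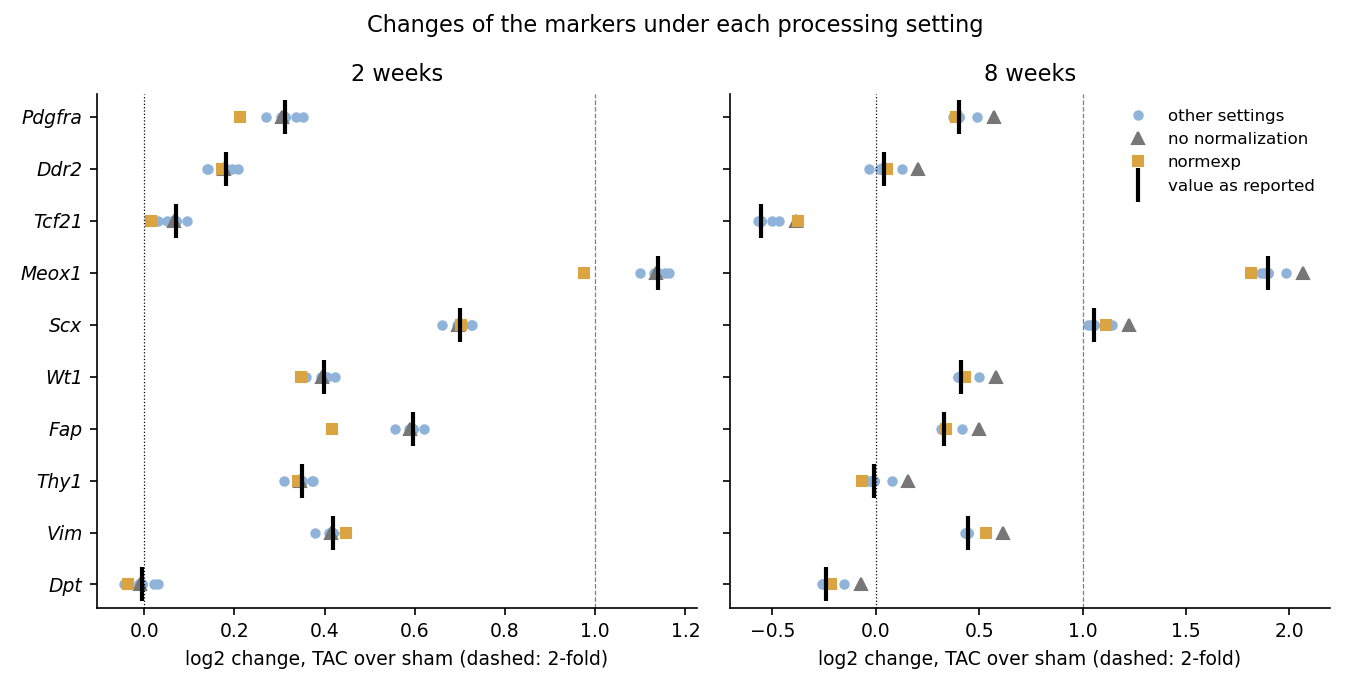
Change of each marker as log2 of TAC over sham at 2 weeks and at 8 weeks, with the value as reported as a black bar, normexp background correction as a square, no normalization between arrays as a triangle and the other settings as points. The dashed line marks 2-fold, and the horizontal scales of the panels differ. Meox1 lies between 0.97 and 1.16 at 2 weeks and between 1.81 and 2.06 at 8 weeks, and Tcf21 between −0.57 and −0.38 at 8 weeks.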

How the data were processed

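The authors deposited the scanner output of 4 single-colour Agilent arrays (SurePrint G3 Mouse GE 8x60K), with Cy3-labelled cRNA from 1 pool of hearts on each. Per the file headers it was made with Feature Extraction 10.7.3.1, whereas the submitters' processing notes name version 9.1. The deposited processed signal is an intensity per spot after background subtraction and spatial detrending, not normalized between arrays. Flags in the files mark spots that are well above background, saturated or outliers. A value table deposited with the arrays is linear and not centred, with medians of 97.2 to 106.3, and each of its columns is the same intensity multiplied by 1 factor. The study analysed them in GeneSpring GX11, and its normalization is not given in the sources used here.

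From these intensities log2 was taken and each array was shifted by its 75th percentile over 55681 non-control probes. Spots flagged as outliers were dropped, and a probe is the mean of its other spots. Probes were named through their RefSeq or Ensembl transcript, and 29502 of the 32342 probes named by a transcript matched a gene. A gene is its probe with the highest mean signal. Where the dimmer array was not well above background, the fold is given as at least the ratio to whichever was higher there, the probe or the lowest signal well above background. With 1 array per group there was no test across probes, and the number of arrays limits the precision. The array annotation is on mm9, and coordinates and promoters are those of GRCm38, with no conversion between builds. The promoter windows were trimmed to the 219 bases before the earliest annotated start.

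The 10 markers and the 15 lists of other genes were chosen with earlier results of these data known. Named were all markers, the genes of the lists beyond 2-fold, the 3 brightest genes of each list of another cell type, and the 3 gene probes nearest to a marker that varied by over 1 on the log2 scale. Further genes of the lists were named after their values were seen. The alternatives were quantile normalization, the median in place of the percentile, no normalization, the percentile over spots, normexp with an offset of 50 on the median signal and local background (limma 3.58.1, R 4.3.3), the table of the series, the mean over probes, other filters on dim probes, outlier spots kept, and thresholds of 1.5-fold and 3-fold. The calling was tested on simulated data in which all planted changes were well beyond 2-fold, which says nothing about changes near that threshold. Computations used Python 3.11.15, pandas 2.3.3 and numpy 2.4.6.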

Additional observations from a re-analysis of the deposited data

Results flagged for a closer look

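The changes of 2 markers had opposite signs at the 2 times. For Tcf21 TAC was above sham at 2 weeks by 0.07 and below it at 8 weeks, and the change at 8 weeks minus that at 2 weeks was −0.62 on the log2 scale. For Thy1 it was −0.36, from 0.35 at 2 weeks to −0.01 at 8 weeks, and the latter was 0.16 without normalization between arrays. Neither difference between the times was tested, since each group was 1 pool. The arrays of the 2 times also lay in different rows of the slide.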

How the results depend on the processing

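Without normalization between arrays the median change of the 10 markers at 8 weeks was 0.54 in place of 0.37, and over the other settings it was as low as 0.35. At 2 weeks the median lay between 0.33 and 0.40 throughout. The number of markers up at 2 weeks, which was 1, became 0 with normexp, 3 at a threshold of 1.5-fold and 0 at 3-fold. The number up at 8 weeks, which was 2, became 1 at 3-fold. No marker was down under any setting. The cause of the shift with normexp was not tested. Leaving out an array was not possible, since each group then has none, and no interval can be set on a ratio of 2 pools. Under normexp Tcf21 changed by −0.38 at 8 weeks in place of −0.55, and without normalization between arrays it also changed by −0.38. No paired analysis was possible because the groups share no 2 replicate numbers. A fit with the time as a block was not run.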
